A study of Homo sapiens with 4 samples.

Results

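The genes described here are 7 Eph receptors (EPHA1, EPHA2, EPHA4, EPHB2, EPHB3, EPHB4 and EPHB6) and 3 ephrins (EFNA1, EFNB1 and EFNB2), taken by gene symbol as 10 rows of a table of 58735 genes. The RNA came from HCC1954, an established human breast cancer cell line with amplified ERBB2. Control cells (shCON, 2 samples) carried a scrambled hairpin and the ZDHHC15-depleted cells (shZDHHC15, 2 samples) a hairpin against ZDHHC15, a palmitoyltransferase gene, and both hairpins came in GIPZ lentiviral vectors. The labels speak of a stable knockdown in one place and of a transient transfection in another. The study's methods mention monoclonal cultures screened for the hairpins, but the sources used here do not say whether these samples were such clones, separate cultures or different hairpins, so p-values measure only the spread between these samples. The comparison asks how the transcripts of the family differ after ZDHHC15 depletion, in a study of ZDHHC15 and the transcriptional coactivator YAP.

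Eph receptors are the largest family of receptor tyrosine kinases, and their ligands, the ephrins, are themselves bound to the membrane of the neighbouring cell. Contact therefore signals in both directions, forward through the receptor's kinase and in reverse through the ephrin, and it governs cell repulsion, adhesion and the sorting of cells at tissue boundaries. A-type ephrins are held by a lipid anchor and B-type ephrins span the membrane, and each class mainly binds receptors of the same letter. In the mammary epithelium and in breast cancer the family is best known through EPHA2 with EFNA1 and EPHB4 with EFNB2.

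The samples held between 17560982 and 19118704 counts on genes. ZDHHC15 (ENSG00000102383) received 17617 and 15716 counts in shCON and 0 counts in each shZDHHC15 sample, where 0 allows up to 3 counts (0.161 and 0.153 CPM, the count scaled to library size by edgeR's TMM method). Such limits cover counting error only. The 2 samples of a group differed by more than counting noise, with a chi-square statistic per degree of freedom of 8.32 for shCON and 6.79 for shZDHHC15, and each was kept as a replicate. Of 7 markers of this epithelial line, GRB7, ERBB2, EPCAM, KRT8 and KRT18 were lower and KRT19 was higher in shZDHHC15 cells. KRT8 (log2 fold change -1.62) and KRT18 (-1.58) changed most, and ERBB2 (-0.24), EPCAM (-0.35), GRB7 (-0.39) and KRT19 (0.44) changed less. The summed level of the 7 markers was 16524 to 17729 CPM in shCON and 10256 to 10306 CPM in shZDHHC15 samples. Most of this fall was that of KRT8, from 5775 and 6342 to 1853 and 2084 CPM. The leukocyte markers PTPRC, CD3E and LYZ and the fibroblast markers COL1A2, DCN, LUM and PDGFRB lay at 5 counts or fewer in every sample, while CD14 (5 to 25 counts) and COL1A1 (100 to 214 counts) were higher in shZDHHC15 cells. Since the vascular endothelium also uses EPHB4 and EFNB2, 4 endothelial genes were read beside them. PECAM1 rose from 75 and 56 to 666 and 405 counts, CDH5 rose from 807 and 780 to 1224 and 1487 counts, KDR fell from 159 and 121 to 108 and 87 counts, and VWF had 0 to 7 counts. The part of these markers in the results was not tested. In these bulk samples, fewer cells of a type and less RNA per cell cannot be told apart.

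All 10 genes passed the filter on low counts, as did 15817 genes in all. By edgeR's quasi-likelihood test with an adjusted p under 0.05 (Benjamini-Hochberg over all tested genes), 2 of the 10 genes were higher (EPHB2 and EPHB3) and 4 were lower (EPHA2, EPHA4, EPHB6 and EFNB2) in shZDHHC15 cells, while EPHA1, EPHB4, EFNA1 and EFNB1 did not pass. Over all tested genes 42% were called, 21.7% as higher and 20.3% as lower, so that a call by itself was common in this comparison. The median log2 fold change of the 10 genes was -0.12 and their median absolute log2 fold change was 0.65, beside 0.015 and 0.37 over all tested genes. The changes thus ran in both directions within the family, and within the B-type receptors, from a log2 fold change of -1.24 for EPHB6 to 1.19 for EPHB3. A log2 fold change beyond 1 in either direction was reached by EPHB3 among the higher genes (7.51% of all tested genes were called higher past this limit) and by EPHB6 among the lower genes (3.79%). In 9 of the 10 genes the CPM values of the groups did not overlap, against 72.5% of all tested genes. The plot of CPM by sample shows these values for every gene.

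**Figure D1:**
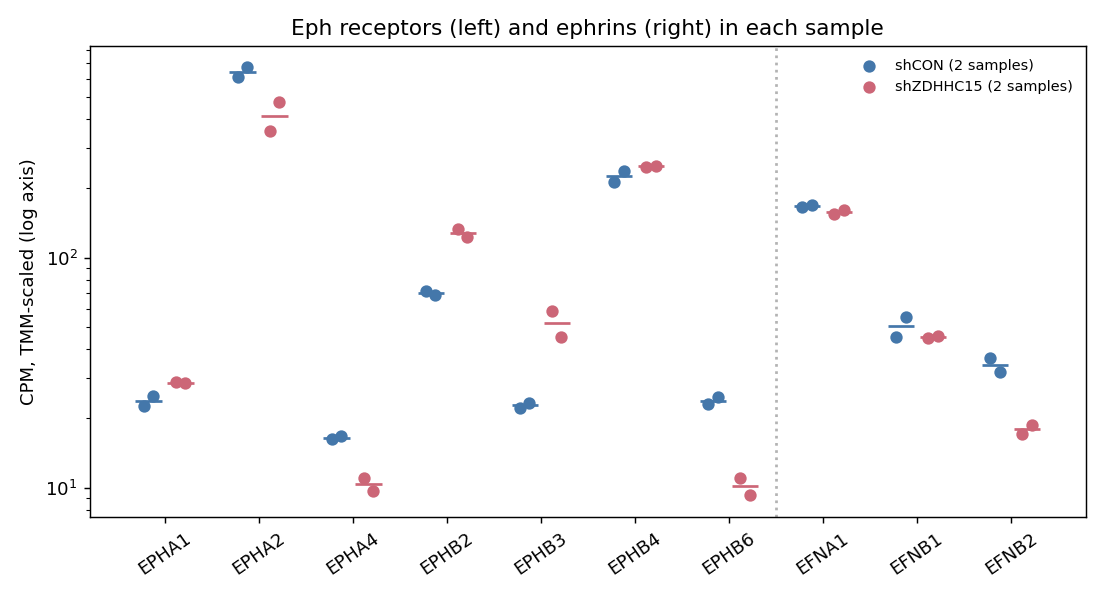
TMM-scaled CPM (log axis) of the 7 Eph receptor and 3 ephrin genes in the 2 shCON and 2 shZDHHC15 samples, with each point a sample and each line a group mean. EPHA2 was the highest in every sample, EPHB2 and EPHB3 stood higher and EPHA2, EPHA4, EPHB6 and EFNB2 lower in both shZDHHC15 samples than in both shCON samples, and the groups of EFNB1 overlapped.

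The B-type receptor genes EPHB2 and EPHB3 rose. Both are known for positioning cells in the intestinal epithelium, where they are read as repulsive cues. EPHB3 (ENSG00000182580, chr3:184561784-184582409 on the plus strand of GRCh38) received 404 and 394 counts in shCON and 1089 and 885 counts in shZDHHC15 samples, or 22.2 and 23.4 CPM against 58.5 and 45.1 CPM. Every shZDHHC15 value was higher than every shCON value, and the shZDHHC15 samples lay further apart than the shCON samples. The level rose 2.27-fold, from 22.8 ± 0.847 to 51.8 ± 9.48 CPM (SD, n = 2), which is 1.19 on the log2 scale with a standard error of 0.136 (edgeR adjusted p = 7.86e-06). Leaving out any sample kept it between 0.99 and 1.36. EPHB2 (ENSG00000133216, chr1:22710839-22921500, plus strand) received 1301 and 1165 counts in shCON and 2469 and 2404 counts in shZDHHC15 samples, or 71.4 and 69.1 CPM against 133 and 122 CPM. The samples of each group lay close together and the groups were apart. Its log2 fold change was 0.86 with a standard error of 0.098 (edgeR adjusted p = 7.56e-06), a rise of 1.82-fold. The gene MIR4253 overlaps 34 bases of its exons and had 0 counts in every sample.

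The B-type receptor gene EPHB6 fell most. Its protein is a receptor whose kinase domain lacks catalytic activity, so that it signals through the receptors it pairs with. EPHB6 (ENSG00000106123, chr7:142855061-142871094, plus strand) received 419 and 419 counts in shCON and 204 and 182 counts in shZDHHC15 samples, or 23.0 and 24.8 CPM against 11.0 and 9.27 CPM. Both shZDHHC15 values were lower than both shCON values. The log2 fold change was -1.24 with a standard error of 0.147 (edgeR adjusted p = 1.08e-05), a level 2.36-fold lower, and leaving out any sample kept the log2 fold change between -1.37 and -1.13. Only 2.57% of all tested genes had a log2 fold change as low or lower, and EPHB3 stood at the 93.6th percentile. In shCON cells EPHB3 and EPHB6 stood at nearly the same mean level (22.8 and 23.9 CPM), and in shZDHHC15 cells at 51.8 and 10.1 CPM.

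The sequences upstream of the starts of these genes are shown because they had the largest rise and the largest fall. Both are the 250 bases before the RefSeq start (GRCh38.p14), written 5′ to 3′ on the gene's own strand. EPHB3 is chr3:184561535-184561784 and EPHB6 is chr7:142862506-142862755, and the RefSeq start of EPHB6 lies 7695 bases inside the gene as the deposited table gives it.
EPHB3: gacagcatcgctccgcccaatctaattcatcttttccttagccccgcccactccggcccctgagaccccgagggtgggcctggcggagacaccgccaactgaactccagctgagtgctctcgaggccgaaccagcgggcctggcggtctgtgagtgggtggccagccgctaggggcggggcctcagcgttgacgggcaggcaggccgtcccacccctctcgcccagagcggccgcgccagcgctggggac
EPHB6: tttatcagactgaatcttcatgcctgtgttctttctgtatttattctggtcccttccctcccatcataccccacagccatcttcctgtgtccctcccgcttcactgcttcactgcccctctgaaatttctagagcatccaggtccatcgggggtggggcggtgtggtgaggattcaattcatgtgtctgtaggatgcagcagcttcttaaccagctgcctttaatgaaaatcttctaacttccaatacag
The stretch of EPHB3 had a GC content of 70% and 21 CpG dinucleotides and that of EPHB6 48% and 3, against medians of 58% and 11 over the 35116 promoters of the RefSeq table.

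EPHB4, the main receptor of ephrin-B2, did not pass the test. EPHB4 (ENSG00000196411, chr7:100802565-100827521, minus strand) received 3902 and 4009 counts in shCON and 4611 and 4915 counts in shZDHHC15 samples, or 214 and 238 CPM against 248 and 250.4 CPM. The shZDHHC15 samples lay just above the higher shCON sample, which itself was further from the other shCON sample. Its log2 fold change was 0.14 with a standard error of 0.0917 (edgeR adjusted p = 0.236), and it shares 69 bases of its exons with SLC12A9 on the other strand.

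Among the A-type receptors EPHA2 and EPHA4 fell and EPHA1 did not pass the test. EPHA2, the receptor that binds ephrin-A1 and is abundant in many epithelial cancers, had the most counts of the family in every sample. EPHA2 (ENSG00000142627, chr1:16124337-16156087, minus strand) received 11166 and 11326 counts in shCON and 6590 and 9298 counts in shZDHHC15 samples, or 612 and 671 CPM against 354 and 474 CPM. Both shZDHHC15 samples were lower than both shCON samples, but shZDHHC15 replicate 1 lay well below replicate 2. The mean was 642 ± 41.7 CPM in shCON and 414 ± 84.7 CPM in shZDHHC15 cells (SD, n = 2), and the log2 fold change was -0.63 with a standard error of 0.117 (edgeR adjusted p = 0.000563). The log2 fold change was -0.44 without shZDHHC15 replicate 1 and -0.86 without shZDHHC15 replicate 2, and it passed the threshold in each of these fits.

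EPHA4, which binds ephrins of both classes, was the least expressed of the 10 genes per length of gene. EPHA4 (ENSG00000116106, chr2:221418027-221574202, minus strand) received 296 and 282 counts in shCON and 205 and 189 counts in shZDHHC15 samples, or 16.2 and 16.7 CPM against 11.0 and 9.63 CPM. The groups did not overlap. Its log2 fold change was -0.68 with a standard error of 0.151 (edgeR adjusted p = 0.00235). The antisense gene AC079834.2 shares 353 bases with its exons and had 7 to 20 counts, and the sources used here do not say whether the counting used the strand. EPHA1 (ENSG00000146904, chr7:143390289-143408892, minus strand), the receptor from which the family was first described, received 413 and 420 counts in shCON and 535 and 558 counts in shZDHHC15 samples, or 22.7 and 24.9 CPM against 28.7 and 28.4 CPM. Its groups did not overlap, yet its log2 fold change of 0.27 (SE 0.122) had an edgeR adjusted p of 0.095. With library size as the only scaling it was 0.34 and passed (adjusted p = 0.0373), and 82 bases of its exons are shared with ZYX on the other strand, which had 5026 to 6107 counts.

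EPHA2 and EPHA4 are the genes of the 10 whose RefSeq promoters held a motif that was searched for. The window ran from 250 bases before to 50 bases after each start, both strands were read, and all 10 genes were matched by symbol to 12 promoters. The letters CATTCC, the core of the element bound by TEAD factors, through which YAP acts on DNA, occurred in 1 of the 12 promoters, that of EPHA2, 73 bases before the start, and in 14% of all promoters of the table. The core of the interferon-stimulated response element (GAAA, any 2 bases, GAAA) occurred in 1 of the promoters of EPHA4, 79 bases before the start, and in 3.57% of all promoters. The other EPHA4 promoter, whose start lies 1898 bases inside the gene as the deposited table gives it, held none of the motifs. The AP-1 motif TGANTCA occurred in 0 of 12 promoters and in 7.71% of all promoters. No motif overlapped another in these windows. The upstream 250 bases of both genes are shown with the matched letters in capitals, EPHA2 from chr1:16156070-16156319 and EPHA4 from chr2:221574203-221574452 of GRCh38.p14, each on the minus strand and written 5′ to 3′ towards the start.
EPHA2: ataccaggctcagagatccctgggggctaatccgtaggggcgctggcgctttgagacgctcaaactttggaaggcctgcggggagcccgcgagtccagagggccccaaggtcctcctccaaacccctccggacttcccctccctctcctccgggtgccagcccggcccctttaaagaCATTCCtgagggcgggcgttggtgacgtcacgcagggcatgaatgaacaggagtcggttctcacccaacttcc
EPHA4: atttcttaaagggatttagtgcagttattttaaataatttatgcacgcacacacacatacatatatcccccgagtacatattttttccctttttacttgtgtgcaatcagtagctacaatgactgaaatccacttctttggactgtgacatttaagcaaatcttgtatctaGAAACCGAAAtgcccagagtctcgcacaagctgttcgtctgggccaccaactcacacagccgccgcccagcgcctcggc
A match of letters is a description of the sequence and shows no binding.

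**Figure D2:**
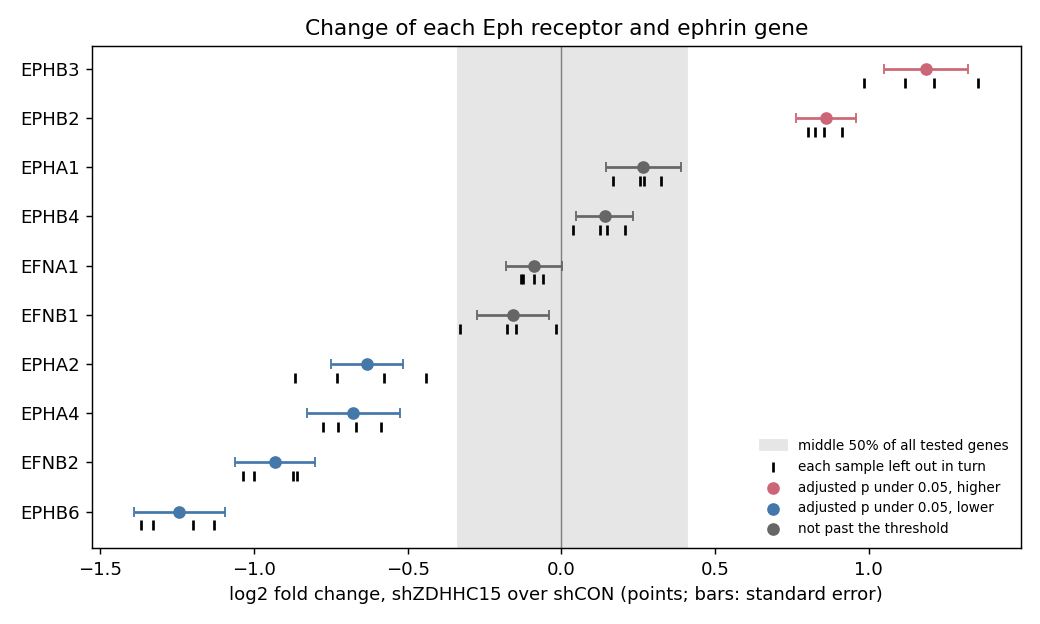
log2 fold change of each of the 10 genes in shZDHHC15 over shCON cells (points, with standard errors as bars), with the values after leaving out each sample in turn as ticks and the middle 50% of all tested genes as a grey band. EPHB3 and EPHB2 lay above the band and EPHA2, EPHA4, EFNB2 and EPHB6 below it, and the ticks of EPHA2 spread from -0.86 to -0.44.

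Of the ephrins, EFNB2 fell and EFNA1 and EFNB1 did not pass the test. Ephrin-B2 is the transmembrane ligand of EPHB4, known from arterial vessels. EFNB2 (ENSG00000125266, chr13:106489731-106535662, minus strand) received 666 and 539 counts in shCON and 320 and 368 counts in shZDHHC15 samples, or 36.5 and 32.0 CPM against 17.2 and 18.7 CPM. The shZDHHC15 values were both lower than the shCON values by far more than the samples of either group differed. The level was 1.91-fold lower, with a log2 fold change of -0.93 and a standard error of 0.129 (edgeR adjusted p = 4.83e-05), and leaving out any sample kept it between -1.03 and -0.86. The antisense gene AL138689.2 covers 1313 bases of its exons and had 1 to 12 counts.

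EFNA1 (ENSG00000169242, chr1:155127460-155134857, plus strand), the lipid-anchored ligand of EPHA2, received 3023 and 2842 counts in shCON and 2866 and 3151 counts in shZDHHC15 samples, or 166 and 168 CPM against 154 and 161 CPM. The groups differed by little, with a log2 fold change of -0.088 and a standard error of 0.0906 (edgeR adjusted p = 0.464). EFNB1 (ENSG00000090776, chrX:68828997-68842147, plus strand), a transmembrane ephrin of craniofacial development, received 823 and 932 counts in shCON and 829 and 891 counts in shZDHHC15 samples, or 45.1 and 55.3 CPM against 44.5 and 45.4 CPM. Its groups overlapped because shCON replicate 1 lay within the range of the shZDHHC15 samples. Its log2 fold change was -0.16 (SE 0.118, edgeR adjusted p = 0.306), and without shCON replicate 1 it was -0.33 and passed the threshold (adjusted p = 0.0241).

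Levels were compared between genes as CPM per kilobase of the gene length in the deposited table. In shCON cells EPHA2 stood first at 154 ± 10.0 CPM per kilobase (SD, n = 2), followed by EFNA1 (65.8 ± 0.743), EPHB4 (35.1 ± 2.60) and EFNB1 (15.1 ± 2.16). The other 6 genes lay between EFNB2 (6.82 ± 0.645) and EPHA4 (2.18 ± 0.0451). Of neighbours in this order only EPHA1 (5.02 ± 0.335) and EPHB3 (5.02 ± 0.187) overlapped between their samples. In shZDHHC15 cells the first 4 genes kept their order, with EPHA2 at 99.5 ± 20.4, EFNA1 at 61.9 ± 1.84, EPHB4 at 38.7 ± 0.302 and EFNB1 at 13.6 ± 0.185 CPM per kilobase. Behind them came EPHB3 (11.4 ± 2.09) and EPHB2 (10.2 ± 0.572), whose samples overlapped, and EPHA4 stayed last (1.37 ± 0.129). The place of EPHB2 depended on the length used, since its gene length of 12516 bases exceeds that of its main coding transcript (3677 bases). Per kilobase of transcript its rank was 4 in both groups, at 19.1 ± 0.442 in shCON and 34.7 ± 1.95 in shZDHHC15 cells, ahead of EFNB1. Other places also turned in shCON cells. There EPHA1 (7.07 ± 0.472) stood ahead of EFNB2 (6.86 ± 0.648), and EPHB6 (5.96 ± 0.327) ahead of EPHB3 (5.37 ± 0.200). In shZDHHC15 cells the genes other than EPHB2 kept their order.

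The balance within the receptors moved with these changes. Summed over the 7 receptors, the level was 202 and 221 CPM per kilobase in the shCON samples and 157 and 182 in the shZDHHC15 samples. EPHA2 made up 72.8% and 73.0% of it in shCON and 54.3% and 62.7% in shZDHHC15 samples. EPHB4 made up 16.4% and 16.7% in shCON and 24.6% and 21.4% in shZDHHC15 samples. The share of EPHB3 was 2.42% and 2.33% in shCON and 8.24% and 5.48% in shZDHHC15 samples. That of EPHB2 was 2.82% and 2.49% in shCON and 6.76% and 5.39% in shZDHHC15 samples. The share of EPHA2 was thus lower and those of EPHB4, EPHB3 and EPHB2 higher in both shZDHHC15 samples, with shZDHHC15 replicate 1 further from the control than replicate 2. All these shares rest on gene length, which weighs EPHB2 down against its transcript length, and shares per kilobase of transcript were not worked out. Among the 3 ephrins, EFNA1 made up 75.8% and 74.2% in shCON and 78.2% and 78.4% in shZDHHC15 samples, and EFNB2 8.44% and 7.12% against 4.42% and 4.63%. With 2 samples against 2 the smallest two-sided p of an exact permutation test of a share is 0.333, so none was run.

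**Figure D3:**
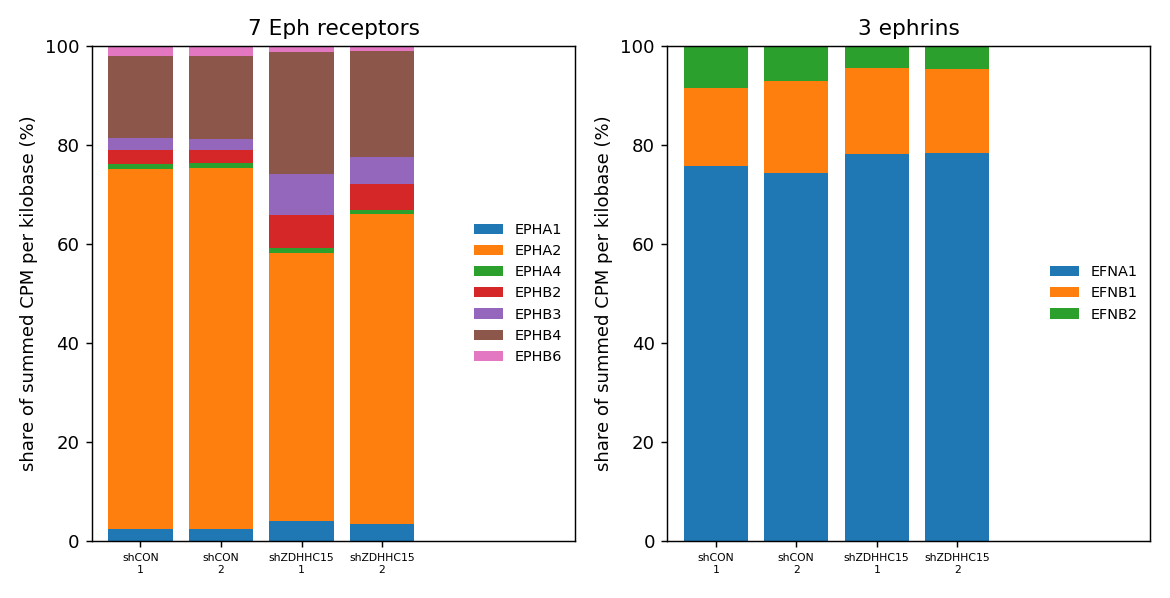
Share (%) of each gene in the summed CPM per kilobase of the 7 Eph receptors (left) and of the 3 ephrins (right), one bar per sample. The EPHA2 share was 72.8% and 73.0% in the shCON bars and 54.3% and 62.7% in the shZDHHC15 bars, and the EFNB2 share was smaller in both shZDHHC15 bars.

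Ligands and their known receptors were also set beside each other in each sample, as ratios of CPM per kilobase for pairs chosen after their values were seen. EPHA2 exceeded EFNA1 by 2.25 and 2.43 times in the shCON samples and by 1.40 and 1.80 times in the shZDHHC15 samples. EPHB4 exceeded EFNB2 by 4.57 and 5.80 times in shCON and by 11.2 and 10.4 times in shZDHHC15 samples. In the pair of EFNB1 and EPHB2 it was the ligand that exceeded the receptor per length of gene, by 2.39 and 3.02 times in shCON and by 1.27 and 1.40 times in shZDHHC15 samples, an order that turns with transcript length. The ratio of receptor to ligand was lower for the EPHA2 and EFNA1 pair and higher for the EPHB4 and EFNB2 and the EPHB2 and EFNB1 pairs in both shZDHHC15 samples. The size of each ratio rests on gene length, while its direction between groups does not. Per kilobase of transcript EPHA2 and EFNA1 averaged 162 and 86.8 CPM in shCON and 104 and 81.6 in shZDHHC15 cells. EPHB4 and EFNB2 averaged 52.2 and 6.86 in shCON and 57.5 and 3.60 in shZDHHC15 cells. No test was run on these ratios, for the same reason as for the shares.

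The 12 remaining genes of the family ranged from 0 counts to levels like those of the 10 genes. Per kilobase of gene length EFNA4 stood at 15.5 ± 4.04 CPM in shCON and 18.7 ± 2.51 in shZDHHC15 cells (SD, n = 2). EFNB1 stood at 15.1 ± 2.16 and 13.6 ± 0.185 on that scale. EFNA5 (4.97 and 4.28) and EFNA3 (4.18 and 5.54) lay above EPHA4 (2.18 and 1.37). The order of levels and the shares above include none of the 12 genes. Of these, 7 passed the filter on low counts, and 14.3% of the 7 were called beside 42% of all tested genes. EPHA10 (ENSG00000183317), a receptor without kinase activity like EPHB6, was the only one of the 7 past the threshold. It received 164 and 204 counts in shCON and 128 and 140 counts in shZDHHC15 samples, and its log2 fold change was -0.58 (SE 0.189, edgeR adjusted p = 0.0221). The call was lost with the DESeq2 Wald test (adjusted p = 0.0828), without a filter on low counts (0.0831), without shCON replicate 2 (log2 fold change -0.37, adjusted p = 0.204) and without shZDHHC15 replicate 1 (adjusted p = 0.0648). EFNA4 and EFNA3 lie upstream of EFNA1 on chromosome 1, with gaps of 9.3 kb between EFNA4 and EFNA3 and 39.9 kb between EFNA3 and EFNA1. EFNA3 had 147 and 133 counts in shCON and 204 and 200 counts in shZDHHC15 samples (log2 fold change 0.41, edgeR adjusted p = 0.0654). EFNA4 had 290 and 390 counts in shCON and 482 and 420 counts in shZDHHC15 samples (log2 fold change 0.28, adjusted p = 0.197). None of the 3 ephrins of this cluster passed the threshold in the fit of all 4 samples. EFNA3 passed with library size as the only scaling (log2 fold change 0.48, adjusted p = 0.035), and EFNA4 passed without shCON replicate 2 (0.56, adjusted p = 0.00296) and had a log2 fold change of 0.00017 without shCON replicate 1. The gene AL691442.1, with 0 counts in every sample, shares exon bases with EFNA3 and EFNA4 on the same strand. The adjusted p-values of EFNA5 (-0.22, from 526 and 470 to 455 and 479 counts), EFNB3 (0.23, 144 and 201 to 258 and 184 counts), EPHB1 (0.63, 23 and 16 to 32 and 34 counts) and EFNA2 (-0.20, 30 and 28 to 23 and 32 counts), each given with its log2 fold change, lay above 0.05, though EFNB3 passed without shCON replicate 2 (log2 fold change 0.54, edgeR adjusted p = 0.0343). EPHA3 had 3 to 10 counts, EPHA8 0 to 6, EPHA6 1 to 3 and EPHA5 0 to 1 count, and EPHA7 had 0 counts in every sample.

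Genes that act with Eph receptors and ephrins were read through a list of 49 genes from general knowledge, which holds cytoplasmic kinases, adaptors, regulators of the cytoskeleton, the ephrin-cleaving protease ADAM10 and proteins that bind B-type ephrins. Of these, 48 were tested, with 12 higher and 9 lower in shZDHHC15 cells, which is 43.8% called beside 42% of all tested genes. The median log2 fold change was 0.091, and the list as a whole was called about as often as any gene. PIK3R1, the regulatory subunit of phosphoinositide 3-kinase, rose most, from 186 and 110 to 663 and 564 counts, or 1.93 on the log2 scale (SE 0.183, edgeR adjusted p = 1.17e-06). VAV3, a guanine nucleotide exchange factor, rose from 95 and 80 to 294 and 179 counts (log2 fold change 1.32, adjusted p = 0.000607). The samples of these genes did not overlap between groups.

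RGS3, whose PDZ-containing form binds B-type ephrins, rose from 358 and 360 to 928 and 790 counts (log2 fold change 1.14, edgeR adjusted p = 9.57e-06). SDCBP, which encodes the PDZ protein syntenin, rose from 3371 and 2649 to 6969 and 6670 counts (log2 fold change 1.06, adjusted p = 1.27e-06). FYN, a Src-family kinase that acts below both ephrin classes, fell most, from 153 and 147 to 59 and 63 counts, with a log2 fold change at -1.42 (SE 0.207, edgeR adjusted p = 7.39e-05). CFL1, which encodes the actin-severing protein cofilin, fell from 21862 and 22833 to 13191 and 15141 counts (log2 fold change -0.79, adjusted p = 9.83e-06), and its exons overlap those of MUS81 and SNX32 on the other strand. HRAS fell from 1909 and 2152 to 1247 and 1375 counts (log2 fold change -0.76, adjusted p = 7.10e-05) and the adaptor gene GRB7, which is co-amplified with ERBB2, by 0.39 on the log2 scale (adjusted p = 0.00178). In each of these genes both shZDHHC15 samples lay on the same side of both shCON samples.

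**Figure D4:**
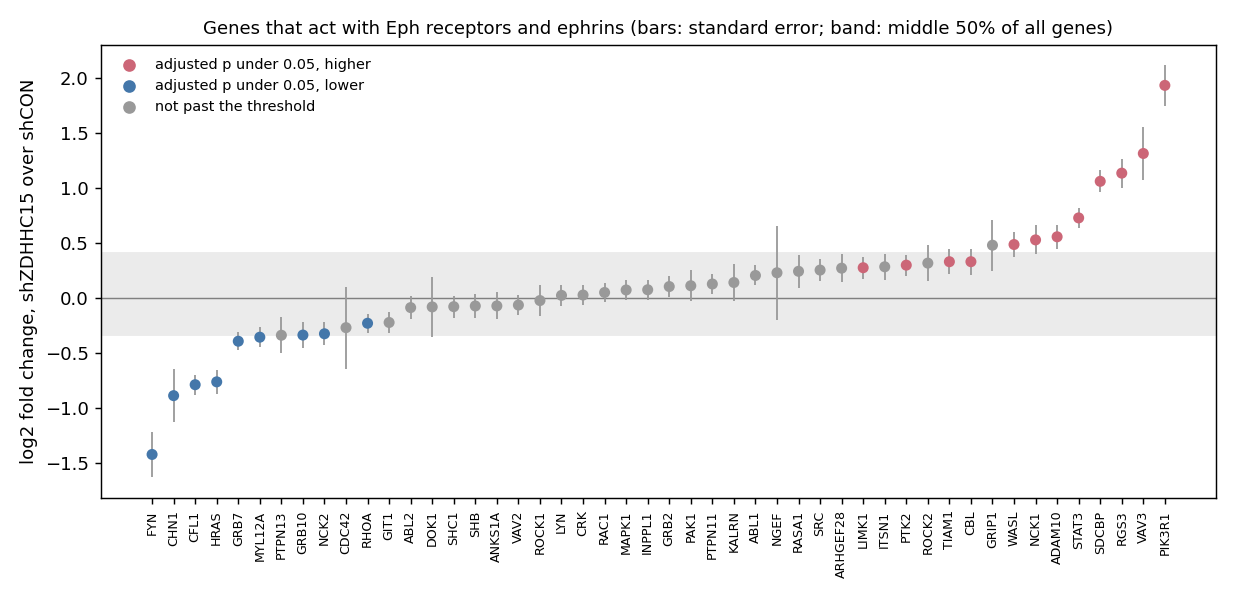
log2 fold change with standard errors of the 48 tested genes that act with Eph receptors and ephrins, ordered by value, with those at an adjusted p under 0.05 in colour and the middle 50% of all tested genes as a band. PIK3R1, VAV3, RGS3 and SDCBP stood highest and FYN lowest, and 12 genes were called higher and 9 lower.

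For EPHB3, the gene of the 10 with the largest change among those that averaged 500 counts or more in their higher group, the most alike patterns over the 4 samples were sought among 6947 protein-coding genes of such abundance. By Euclidean distance between log2 CPM values centred on each gene's mean, RGS3 was closest (0.0725), followed by SREBF1 (0.0804) and CYP26B1 (0.083). These genes rose by 1.14, 1.23 and 1.21 on the log2 scale, near the 1.19 of EPHB3, and like it stood higher in shZDHHC15 replicate 1 than in replicate 2. With 4 samples in 2 groups such a ranking describes mainly the size of the change.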

How the data were processed

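Libraries of total RNA were built with the NEBNext Ultra kit, and the authors deposited 1 table of raw counts per gene for the 4 samples, not normalized. The processing notes name hg38, HISAT2, StringTie and SAMtools without a role. The counting tool, the annotation and the use of strand are not given in the sources used here. All 58735 gene identifiers, symbols, starts and ends matched GENCODE release 29 (GRCh38). All 4 columns of counts were used. Genes passing filterByExpr (15817) were tested in edgeR 4.0.16 (R 4.3.3) with TMM factors (0.962 to 1.03), glmQLFit (legacy = FALSE) and glmQLFTest on group alone, with Benjamini-Hochberg adjustment at 0.05. Standard errors (SE) were derived from the F values. The tests were also run on simulated counts with the same dispersion for every gene. There the changed genes had a change larger than that of any Eph receptor or ephrin gene here, and smaller changes were not simulated.

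The members, gene lists, motifs and alternatives were chosen with earlier results of these data known. The genes named are the 10 members, the remaining family, ZDHHC15, the cell type markers, genes that overlap a named gene and, of 49 effectors, the 4 largest rises and 4 largest falls with an adjusted p under 0.05 and a mean of at least 100 counts, plus the 3 genes most like the member that changed most with at least 500 counts in its higher group. Overlaps came from GENCODE exons, and near-identical stretches (at least 150 bases, at least 97% identity) from BLAST+ 2.17.0. Both were sought only for the members, the remaining family, the named effectors and ZDHHC15. For these genes BLAST+ found no such stretch outside overlapping genes. Alternatives were 3 other scalings (DESeq2 size factors, upper-quartile factors, or none beyond library size), the Wald test of DESeq2 1.42.0, a filter at 10 counts in every sample or no filter, edgeR's older quasi-dispersion, a replicate block and leaving out each sample. Transcript length in place of gene length was added after seeing the data. The result of 1 listed marker gene is not reported here.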

Additional observations from a re-analysis of the deposited data

How the results depend on the processing

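The count of Eph receptor and ephrin genes called was 2 higher and 4 lower under every alternative fit, except 3 higher with library size only, where EPHA1 passed (log2 fold change 0.34, adjusted p = 0.0373), and 5 lower without shCON replicate 1, where EFNB1 passed. With each sample left out, in fits that assume the lone sample of a group to vary like the other group, EFNB1 lay between -0.33 and -0.017. EFNB3, outside the 10 genes, changed sign in 2 of these fits, between -0.075 and 0.54. Among the fits of all 4 samples, the effectors called ranged from 8 to 16 higher and from 6 to 10 lower. Over all tested genes these fits called from 4632 of 30168 without a filter to 7225 of 15817 with the replicate block. The DESeq2 Wald test called 5029 of 16131. The fewest effectors called higher also came without a filter and the most with the replicate block, so these ranges are not particular to the list. The replicate numbers share no stated origin (the deviations of the samples numbered 1 correlated at 0.18 over 10687 genes), and the replicate block gave 2 higher and 4 lower of the 10 genes, 16 and 10 of the effectors, and 7225 genes called in all against 6644. Transcript length in place of gene length moved 13 of 20 levels by more than 1 SD between replicates.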
